A study of Mus musculus with 6 samples.

Results

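Transcripts of 8 genes of the aryl hydrocarbon receptor pathway and of the Cyp2a family were followed in mouse liver: Cyp1a1, Cyp1a2, Cyp2a4, Cyp2a5, Cyp2a12, Ahr, Arnt and Tiparp. The array carried 18 probes annotated to these symbols among 45281 probes, and every such probe was taken. A gene counted as measured when a probe had a detection p under 0.01 on at least 2 of the 6 arrays, and 11 probes of 5 genes did so: Cyp1a2, Cyp2a4, Cyp2a5, Cyp2a12 and Arnt. The genes were chosen by pathway and family with their levels and arm and time differences on these arrays already known. Those differences are therefore given as values, without a test.

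The livers came from C57BL/6J mice aged 18 weeks, fed without restriction in a cycle of 12 h light and 12 h dark; their sex is not given in the labels. The RC arm had the chow that the labels call regulatory, with vehicle, and the HFD arm a high-fat diet with vehicle. For the HFD arm the labels give 10 weeks of treatment. The NOB arm had the high-fat diet and oral doses of nobiletin, a flavone of citrus peel that activates ROR nuclear receptors, of 200 mg/kg given on alternate days for 10 weeks. Each arm was sampled at ZT2, 2 h after the light came on, and at ZT14, 2 h after it went off. RNA of 4 mice was pooled for each combination of arm and time and read on 1 array, so there were 6 arrays and no replicate within a group.

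The aryl hydrocarbon receptor, encoded by Ahr, is a transcription factor that is activated by planar aromatic ligands, among them many plant flavonoids. It binds DNA as a pair with ARNT, at sites known as xenobiotic response elements, and switches on Cyp1a1, Cyp1a2 and Tiparp. CYP1A2 is abundant in hepatocytes around the central vein even without an inducer and metabolizes caffeine, whereas CYP1A1 is scarce in liver until the receptor is activated. TIPARP is an ADP-ribosyltransferase that in turn restrains the receptor. CYP2A5 hydroxylates coumarin and bilirubin and its transcript follows a daily rhythm in mouse liver, where the PAR bZIP factor DBP is a known activator. CYP2A4 is a close relative that hydroxylates steroids, and CYP2A12 is a further hepatic steroid hydroxylase of the family.

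On each array 28.1% to 32.0% of the probes were detected, the median raw signal lay between 57.5 and 62.4, and the arrays correlated at r = 0.960 to 0.987 over 8561 genes. Levels are log2 intensities after background correction and quantile normalization, in which undetected probes centred near 4.34, the dimmest detected ones lay at 4.85 to 5.12 and the top of the scale was 14.60. Of 5 hepatocyte markers on the array, Ttr at up to 14.21 and Apoa1 at 14.19 to 14.36 lay near that top, while the listed probe of Alb stayed at 4.77 to 5.39 and that of Tat was not detected. The arrays are of whole tissue, so fewer cells of a type and less RNA per cell cannot be told apart.

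Sequences just upstream of the annotated transcription starts are shown for the pair of neighbouring Cyp1a genes, since Cyp1a2 was bright and Cyp1a1 was not detected, and for Cyp2a4 and Cyp2a5, since on chow their levels went opposite ways over the day. They are the 250 bases before the start in RefSeq (GRCm38.p6), each 5′ to 3′ on the gene's own strand. Capitals mark the core of the xenobiotic response element, GCGTG, or the D-box TTATGNAA that PAR bZIP factors bind, both searched on both strands. The windows are chr9:57697363-57697612 on the plus strand for Cyp1a1, chr9:57683656-57683905 on the minus strand for Cyp1a2, chr7:26306942-26307191 on the plus strand for Cyp2a4 and chr7:26835089-26835338 on the plus strand for Cyp2a5.
Cyp1a1: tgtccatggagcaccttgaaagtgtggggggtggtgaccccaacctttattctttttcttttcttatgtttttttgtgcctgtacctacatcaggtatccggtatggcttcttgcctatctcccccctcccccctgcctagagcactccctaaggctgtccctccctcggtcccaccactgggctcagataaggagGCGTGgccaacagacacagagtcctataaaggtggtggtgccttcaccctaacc
Cyp1a2: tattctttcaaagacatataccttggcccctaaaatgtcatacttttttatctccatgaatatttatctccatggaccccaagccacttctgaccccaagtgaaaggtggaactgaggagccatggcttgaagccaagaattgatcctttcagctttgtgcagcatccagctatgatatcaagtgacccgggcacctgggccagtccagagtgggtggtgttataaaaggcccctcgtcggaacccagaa
Cyp2a4: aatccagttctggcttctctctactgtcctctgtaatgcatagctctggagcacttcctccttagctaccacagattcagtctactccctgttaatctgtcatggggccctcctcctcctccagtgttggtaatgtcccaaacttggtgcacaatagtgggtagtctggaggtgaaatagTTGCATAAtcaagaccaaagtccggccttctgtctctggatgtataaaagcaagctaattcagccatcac
Cyp2a5: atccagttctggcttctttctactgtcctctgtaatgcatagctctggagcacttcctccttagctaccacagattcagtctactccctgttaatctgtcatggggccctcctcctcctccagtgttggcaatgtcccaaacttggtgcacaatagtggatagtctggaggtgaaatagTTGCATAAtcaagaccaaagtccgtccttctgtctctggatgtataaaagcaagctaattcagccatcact

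Of the 7 genes with such a window, 3 held GCGTG, namely Cyp1a1 at 54 to 50 bases before the start, Arnt at 29 to 25 and Tiparp at 170 to 166 on the opposite strand, against 28.2% of 32851 promoter windows of that length. The D-box letters occurred in Cyp2a4, at 70 to 63 bases before the start, and in Cyp2a5, at 71 to 64, and in 3.07% of all windows. The ROR core motif AGGTCA was in none of the 7 windows and in 14% of all. Absence of a motif, as of GCGTG from the Cyp1a2 window, says only that its letters are absent from these stretches. The Cyp2a4 and Cyp2a5 windows differed at 4 of 249 aligned bases and were 98.4% identical, so they are copies of each other and their shared D-box is not an independent repeat.

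Cyp1a2 lay lower on the high-fat diet than in either other arm at both times. With nobiletin its level was 1.33-fold higher than on chow at ZT2 and 1.26-fold lower at ZT14. On its brighter probe Cyp1a2 stood at 11.56 in RC, 10.02 in HFD and 11.97 in NOB at ZT2, and at 12.10 in RC, 9.76 in HFD and 11.77 in NOB at ZT14. The 4 RC and NOB arrays shared a narrow range of 11.56 to 12.10, and both HFD arrays lay at least 1.54 below it. No spread within a group was available. The residual SD of the additive model of arm and time, 0.31 for Cyp1a2, served as the yardstick instead. This SD comes from the same 6 levels with 2 residual degrees of freedom, so steps set beside it are a description and not a test. In the order of the 6 levels the step between RC at ZT2 and HFD at ZT2 was the only step between neighbours that exceeded this SD.

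At ZT2 the HFD pool held 2.90-fold less Cyp1a2 signal than the RC pool, and at ZT14 it held 5.05-fold less, log2 differences of -1.54 and -2.34. Among 8561 genes, 37 had a lower HFD minus RC difference at ZT2 and 24 at ZT14. The NOB pool exceeded the HFD pool 3.85-fold at ZT2 and 4.02-fold at ZT14, log2 differences of 1.94 and 2.01, with 1 gene at ZT2 and 5 genes at ZT14 having a higher difference. Lower by 1.5-fold in HFD than in RC at both times were 2.49% of all genes, and higher in NOB than in HFD at both times 0.491%. By the brightest probe of each gene, Cyp1a2 was the only member in each. On its dimmest probe Cyp2a5 was also lower by 1.5-fold in HFD than in RC at both times, at -0.68 and -0.89. HFD minus RC and NOB minus HFD use the same HFD arrays, so a low reading on those arrays enters each of them. Against chow, the NOB pool differed by 0.41 at ZT2 and by -0.33 at ZT14, which is 1.33-fold higher and 1.26-fold lower.

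The dimmer probe of Cyp1a2 gave the same picture at a level 0.53 lower on average. It read 11.05 in RC, 9.36 in HFD and 11.63 in NOB at ZT2, and 11.67 in RC, 9.09 in HFD and 11.17 in NOB at ZT14. Over the 6 arrays the pair of probes correlated at r = 0.998, a description over arrays that share both probes' samples. On this probe HFD minus RC was -1.69 at ZT2 and -2.58 at ZT14, and NOB minus HFD was 2.27 and 2.08, so each difference was larger in size than on the brighter probe. All 12 readings had a detection p of 0.

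**Figure D1:**
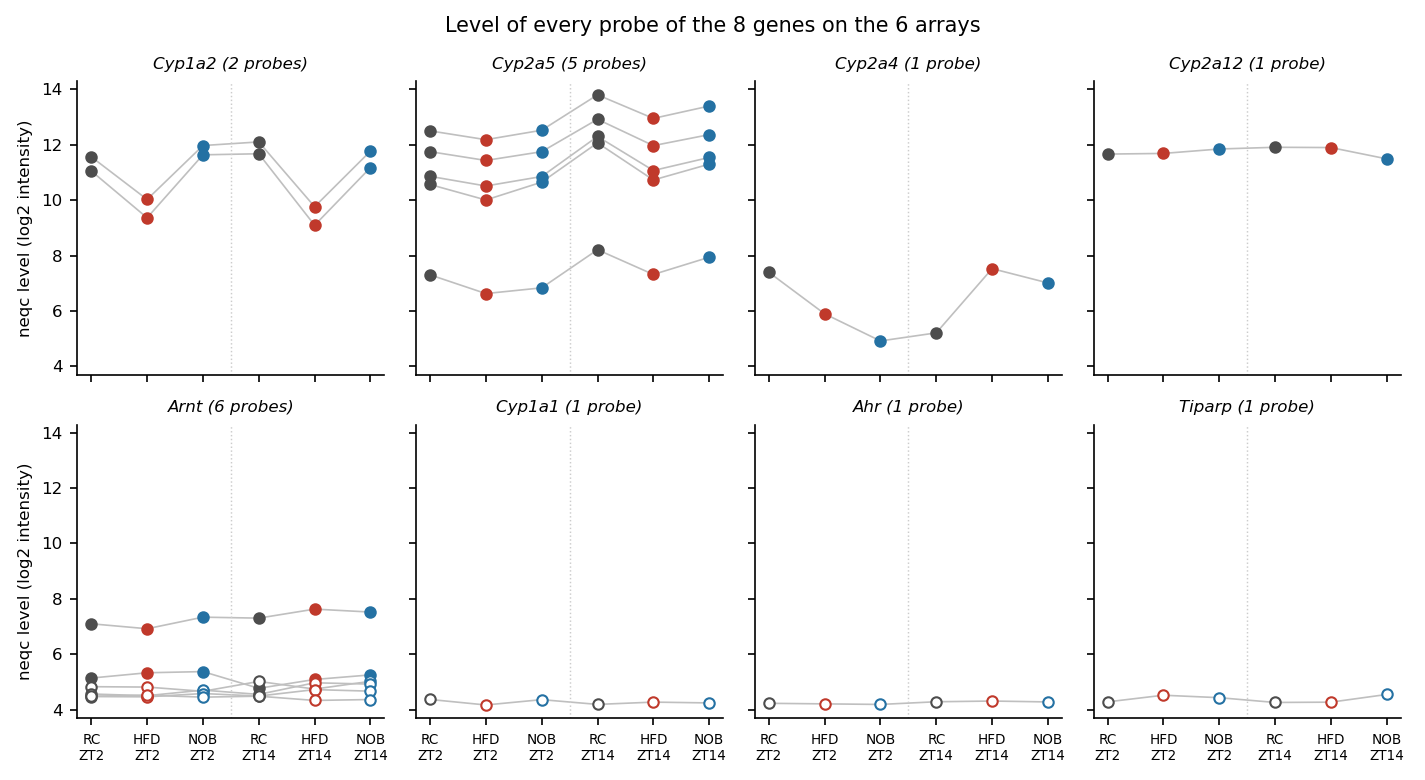
Background-corrected, quantile-normalized level (log2 intensity) of each of the 18 probes on the 6 arrays, ordered by time and arm (RC grey, HFD red, NOB blue); grey lines join a probe's readings, and open points mark probes that did not reach a detection p under 0.01 on 2 arrays. Cyp1a2 dips on both HFD arrays, the 5 Cyp2a5 probes run parallel and lie higher at ZT14, and Cyp1a1, Ahr and Tiparp stay near 4.34, where undetected probes centre.

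Cyp1a1, the other CYP1A enzyme and the receptor's most inducible target, was not detected on any array. Its only probe had raw signals of 57.2 in RC, 48.2 in HFD and 58.6 in NOB at ZT2, and of 46.6, 53.7 and 52.6 in the same order at ZT14. Detection p ran from 0.359 to 0.994, so the probe could not be told from the array's negative controls. A single probe at background cannot show whether Cyp1a1 differed between the arms, and the activity of the receptor was not tested.

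The receptor gene Ahr was not detected either. Its only probe read 51.0, 51.7 and 48.9 raw units in RC, HFD and NOB at ZT2, and 52.4, 55.5 and 54.6 at ZT14, with a detection p between 0.511 and 0.969. Tiparp, the receptor's feedback target, had a single probe at raw signals of 53.8, 64.9 and 61.0 at ZT2 and of 51.2, 53.6 and 63.4 at ZT14, with a detection p between 0.106 and 0.720. The 3 genes have only a bound on these arrays, and no fold is given for any of them.

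Arnt, the DNA-binding partner of the receptor, was measured, and its levels spanned 1.63-fold on the brightest probe. Its brightest probe stood at 7.10 in RC, 6.92 in HFD and 7.34 in NOB at ZT2, and at 7.30 in RC, 7.63 in HFD and 7.52 in NOB at ZT14. No step between neighbours in this order exceeded the residual SD of 0.21, and no arm difference within a time passed 1.5-fold. The day to night difference in HFD was 0.71, or 1.63-fold, beside 0.20 in RC and 0.18 in NOB.

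Probes of Arnt did not agree. Of 6 probes 1 was detected on all arrays and 1 on 5 arrays, while the other 4 passed the detection threshold on 0 arrays. The second detected probe, annotated to another Arnt transcript, read 2.14 lower on average and correlated with the first at r = -0.20. Its day to night differences were -0.37 in RC, -0.24 in HFD and -0.12 in NOB, opposite in sign to those of the brightest probe in all 3 arms, so no direction over the day is given for Arnt.

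Cyp2a5 was higher at ZT14 than at ZT2 in every arm, by less in HFD than in RC. The brightest Cyp2a5 probe stood at 12.50 in RC, 12.18 in HFD and 12.52 in NOB at ZT2, and at 13.80 in RC, 12.95 in HFD and 13.39 in NOB at ZT14. At each time HFD was the lowest of the 3 arms, and the ZT14 levels did not overlap those at ZT2. The rise from ZT2 to ZT14 was 2.46-fold in RC, 1.70-fold in HFD and 1.83-fold in NOB, log2 differences of 1.30, 0.77 and 0.87. A rise of 1.5-fold in all 3 arms was shared by 0.28% of 8561 genes. In the order of levels every step but that between NOB and RC at ZT2 exceeded the residual SD of 0.20.

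The arms differed most at ZT14. HFD minus RC was -0.32 at ZT2 and -0.85 at ZT14, or 1.25-fold and 1.80-fold lower. On the brightest probe NOB minus HFD was 0.34 at ZT2 and 0.45 at ZT14, or 1.27-fold and 1.36-fold higher. On that probe it reached 1.5-fold at neither time. On the brightest probe NOB minus RC was 0.02 at ZT2 and -0.40 at ZT14, which places the NOB pool between the others at night.

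All 5 Cyp2a5 probes were detected on all 6 arrays with a detection p of 0, and their readings correlated pairwise at r = 0.936 to 0.998 although the dimmest lay 5.52 below the brightest on average. On the dimmest, Cyp2a5 read 7.30, 6.63 and 6.83 in RC, HFD and NOB at ZT2, and 8.21, 7.32 and 7.94 at ZT14. HFD minus RC at ZT2 was -0.32, -0.32, -0.35, -0.56 and -0.68 from the brightest probe to the dimmest. At ZT14 it was -0.85, -0.95, -1.23, -1.34 and -0.89 in that order. NOB minus RC at ZT14 was -0.40, -0.55, -0.76, -0.77 and -0.27, past 1.5-fold on the middle and second dimmest probes. The day to night difference in RC was lowest on the dimmest probe, at 0.91, and highest on the second dimmest. In NOB it was above that in RC on the dimmest probe, at 1.105. On the second dimmest it was below that in HFD, at 0.65 against 0.72. The sign of each of these differences was shared by all probes. The order of arms at ZT2 was not, since NOB minus RC at that time was -0.47 on the dimmest probe. The brightest probe reached 13.80 on a scale that ends at 14.60, and at ZT14 the other probes gave larger diet differences. From the brightest probe to the dimmest, NOB minus HFD was 0.34, 0.32, 0.34, 0.64 and 0.21 at ZT2. At ZT14 it was 0.45, 0.40, 0.47, 0.57 and 0.62 in that order. It passed 1.5-fold on the second dimmest probe at ZT2 and on the dimmest at ZT14.

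The difference of Cyp2a4 over the day pointed down on chow and up in both high-fat arms. Its 6 levels spanned 6.10-fold, against 5.05-fold for Cyp1a2, but 3.17-fold against 4.88-fold by quantile normalization without background correction. Its single probe stood at 7.40 in RC, 5.90 in HFD and 4.92 in NOB at ZT2, and at 5.21 in RC, 7.53 in HFD and 7.01 in NOB at ZT14. Chow was thus the highest arm at ZT2 and the lowest at ZT14. From ZT2 to ZT14 Cyp2a4 went down 4.55-fold in RC and up 3.09-fold in HFD and 4.27-fold in NOB, log2 differences of -2.19, 1.63 and 2.09. HFD minus RC was -1.50 at ZT2 and 2.32 at ZT14, and NOB minus RC was -2.48 and 1.80. Such a turn past 1.5-fold on both sides was met by 0.0934% of all genes for HFD minus RC and by 0.199% for NOB minus RC.

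The lowest Cyp2a4 readings lay close to background, with a detection p of 0.00962 in NOB at ZT2 and of 0.00641 in RC at ZT14, so the sizes of the differences that use them rest partly on background. With quantile normalization alone Cyp2a4 had -1.42 in RC, 1.16 in HFD and 1.25 in NOB over the day. In that setting HFD minus RC was -1.06 at ZT2 and 1.53 at ZT14, and NOB minus RC was -1.56 and 1.12. Each kept its sign and stayed past 1.5-fold, while NOB minus HFD at ZT2 shrank from -0.98 to -0.50, which is under it. The detected probes of these arrays began at 4.91 and 5.12. The pattern of being lower by 1.5-fold at ZT14 in RC and higher by 1.5-fold at ZT14 in both HFD and NOB was met by 5 of 8561 genes, or 0.0584%, the others being Cox7b, Ms4a7, Pdk4 and Xlr4a, named after their values were seen. The residual SD of Cyp2a4 was 1.66, because the additive model counts such a turn as spread, and no step in the order of its levels exceeded it. Cyp2a4 and Cyp2a5 are near-identical copies whose transcripts could share a probe, which was not tested, and their brightest readings correlated at r = -0.06 over the 6 arrays.

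Cyp2a12 was bright and nearly level. It stood at 11.66 in RC, 11.68 in HFD and 11.84 in NOB at ZT2, and at 11.91 in RC, 11.90 in HFD and 11.49 in NOB at ZT14. Its whole range was 1.34-fold, no step between neighbours exceeded the residual SD of 0.24, and HFD minus RC was 0.02 at ZT2 and -0.01 at ZT14. The lowest of its 6 levels was that of NOB at ZT14, at -0.41 from HFD and -0.42 from RC.

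**Figure D2:**
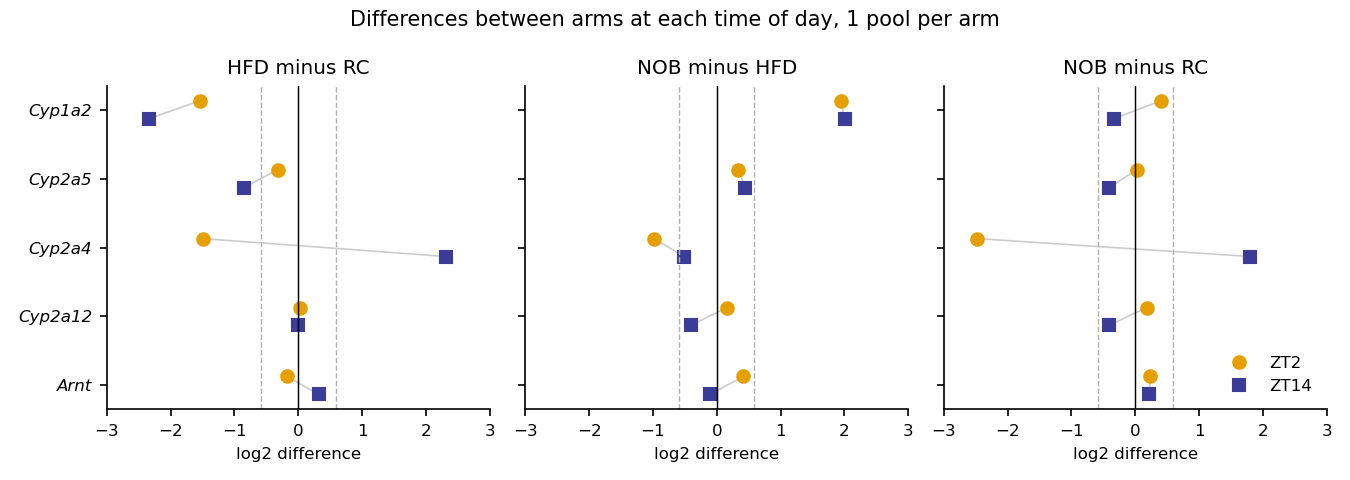
Log2 difference between arms for the 5 measured genes at ZT2 (orange circles) and ZT14 (dark blue squares), each from 1 pool per arm; the solid line marks 0 and the dashed lines 1.5-fold. Cyp1a2 lies left of the dashed line in HFD minus RC and right of it in NOB minus HFD at both times, Cyp2a4 lies on opposite sides at ZT2 and ZT14 in HFD minus RC and NOB minus RC, and Cyp2a12 stays near 0 in HFD minus RC.

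Counted by a difference of 1.5-fold within a time, HFD was lower than RC for 2 of the 5 measured genes at ZT2, where 5.53% of all genes were, and for 2 of 5 at ZT14, where 7.35% were, with 1 of 5 higher at ZT14 beside 11.8%. NOB was higher than HFD for 1 of 5 at ZT2, beside 2.51% of all genes, and for 1 of 5 at ZT14, beside 2.36%, and it was lower for 1 of 5 at ZT2, beside 4.15%. That 1 gene was Cyp2a4, and the count was 0 without background correction and with an offset of 50. Against RC, NOB was lower for 1 of 5 at ZT2, beside 3.57%, and higher for 1 of 5 at ZT14, beside 9.02%. Over the day, 1 of 5 was higher at ZT14 and 1 of 5 lower in RC, beside 4.03% and 5.42%, while 3 of 5 were higher in HFD and 2 of 5 in NOB, beside 3.07% and 3.84%. The 3 in HFD included Arnt on its brightest probe, and the count was 2 with the mean of probes, without background correction or with an offset of 50. The genes had been chosen with these values in view, and nothing is read from the shares.

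The PAR bZIP genes Dbp and Tef, whose products bind the D-box, were among 14 genes listed as regulators of Cyp2a5 or Cyp1a2. Dbp stood at 8.66 in RC, 10.45 in HFD and 10.31 in NOB at ZT2, and at 9.23, 8.44 and 8.68 at ZT14, so its difference over the day was 0.57 in RC, -2.01 in HFD and -1.63 in NOB. Dbp was 1 of 5 genes, or 0.0584%, that lay higher in HFD than in RC at ZT2 and lower at ZT14, each by 1.5-fold. Tef stood at 7.86, 8.41 and 8.51 in RC, HFD and NOB at ZT2 and at 9.17, 8.50 and 8.80 at ZT14. The day to night difference of Dbp was opposite in sign to that of Cyp2a4 in each arm, while that of Cyp2a5 was positive in all 3.

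**Figure D3:**
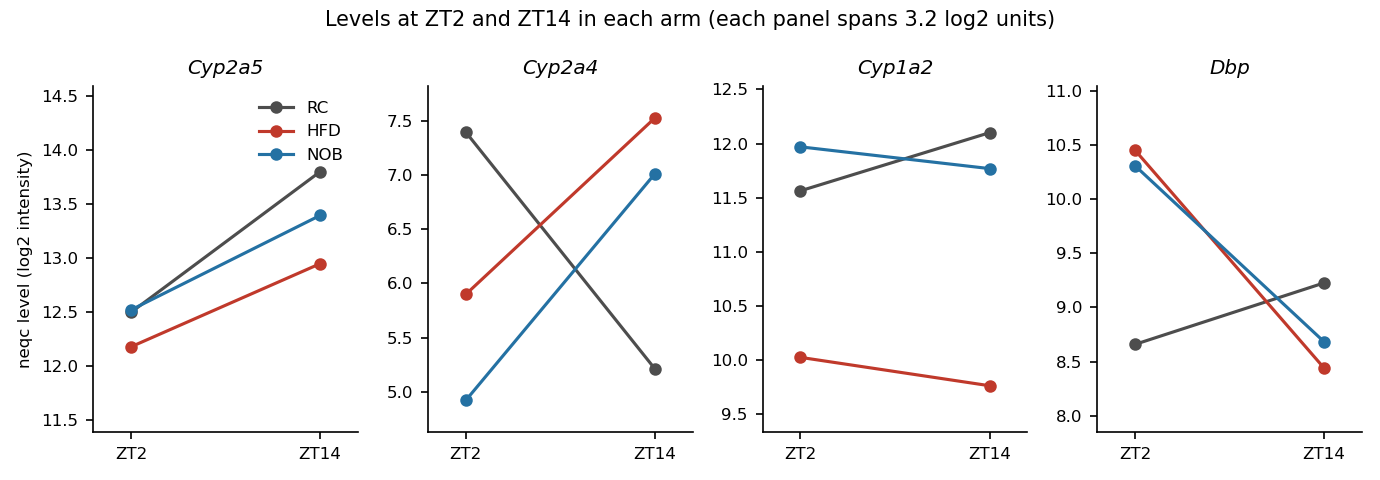
Level (log2 intensity) at ZT2 and ZT14 of Cyp2a5, Cyp2a4, Cyp1a2 and Dbp in RC (grey), HFD (red) and NOB (blue), 1 pool per point, on axes that all span the same number of log2 units. Cyp2a5 is higher at ZT14 in all 3 arms, the RC line of Cyp2a4 falls while those of HFD and NOB climb, and the Dbp lines run opposite to those of Cyp2a4 in each arm.

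Other genes of the pathway were compared with limma in the additive model of arm and time. The gene lists here and below were chosen with earlier results of these data known, so their p-values are a description and not independent support. At an adjusted p under 0.05 limma called 6.82% of 8561 genes between HFD and RC and 0.164% between NOB and HFD. It called 0.993% between NOB and RC and 0.0234% between the times. Of 13 other genes of the receptor's battery 7 were measured, and only Nfe2l2, the antioxidant-response factor NRF2, rose on the high-fat diet (log2 difference 0.79 ± 0.17 SE, limma adjusted p = 0.0466), with 0 that fell. Its call ended when any 1 of the 6 arrays was left out, at a limma adjusted p of 0.0578 to 0.347, with the authors' values (0.0857) and without the filter on dim probes (0.110). Limma called 0 of the 7 between NOB and HFD and 0 between NOB and RC, where 2 and 1 had an unadjusted p under 0.05. The median difference of the 7 genes was 0.47 between HFD and RC and -0.28 between NOB and HFD, beside medians over all genes of -0.00 and 0.01.

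No listed target passed in the direction of Cyp1a2. The quinone reductase gene Nqo1 stood at 5.51, 5.97 and 5.87 in RC, HFD and NOB at ZT2 and at 5.45, 5.93 and 5.31 at ZT14, a difference of 0.47 for HFD minus RC that did not pass. The glucuronosyltransferase genes Ugt1a6a at 0.16 and Ugt1a6b at 0.15 did not pass. The glutathione transferase gene Gsta1 had the largest differences that did not pass, in both cases opposite in sign to Cyp1a2. They were 2.28 ± 0.58 SE for HFD minus RC (limma adjusted p = 0.0678) and -2.20 for NOB minus HFD (limma adjusted p = 0.333). Within a time, its HFD minus RC was 0.99 at ZT2 and 3.57 at ZT14, and its NOB minus HFD was -2.16 and -2.23. Gsta1 passed for HFD minus RC without RC at ZT2 (limma adjusted p = 0.00123) and for NOB minus HFD without either RC array (0.00652). Cyp1b1, Aldh3a1, Ahrr, Cyp2s1 and Fmo2 had probes on the array and were not measured.

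No gene among the receptor's chaperones and coactivators, of which 5 of 10 were measured, passed limma for any pair of arms, with 1 at an unadjusted p under 0.05 for HFD minus RC and 0 for the others. The chaperone gene Hsp90aa1, whose product holds the unliganded receptor in the cytosol, lay at -1.08 for HFD minus RC (limma adjusted p = 0.106). With 1 array left out, this difference ran from -1.65 without RC at ZT2 to -0.52 without RC at ZT14. Whether Hsp90aa1 passed depended on the array left out. Ncoa3, a coactivator, lay at 0.40 for NOB minus HFD. The regulators of Cyp2a5 or Cyp1a2 counted 12 measured of 14, with Nfe2l2 again the only call. Hnf4a, a master regulator of hepatocyte genes, lay at -0.59 for HFD minus RC, Ppargc1a, a fasting-induced coactivator, at 0.44 for NOB minus HFD, and Nr1i3, which encodes the xenobiotic receptor CAR, at 0.34 and 0.12 for these comparisons, none of which passed.

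Genes that supply P450 enzymes with haem and electrons did not pass limma in any arm comparison, with 13 of 16 measured and 2, 0 and 1 at an unadjusted p under 0.05 for HFD minus RC, NOB minus HFD and NOB minus RC. Alas1, the rate-limiting enzyme of haem synthesis, stood at 12.25, 12.82 and 12.40 in RC, HFD and NOB at ZT2 and at 12.67, 12.57 and 13.20 at ZT14. The biliverdin reductase gene Blvrb had the largest HFD minus RC difference of the list at 0.59 (limma adjusted p = 0.0569), and passed in 4 alternative settings at 0.0229 to 0.0473, and Hmox1, which degrades haem, the largest NOB minus HFD difference at 0.55.

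The position of hepatocytes along the lobule was followed with genes of either end, because Cyp1a2 is known as a pericentral gene. Of 13 measured pericentral genes 1 fell on the high-fat diet and 0 rose, namely Ang, which encodes a secreted ribonuclease (-1.21 ± 0.20 SE, limma adjusted p = 0.0200), and the median was -0.11. Glul, the glutamine synthetase of the innermost hepatocytes, lay at 0.23 and Cyp2e1 at 0.07, but neither probe could show much, since Glul read 5.12 to 5.96, near the dimmest detected probes, and Cyp2e1 up to 14.29, near the top. Of 11 measured periportal genes 5 fell and 0 rose: the urea cycle genes Cps1 at -1.41 ± 0.19 (limma adjusted p = 0.0114) and Asl at -0.81 ± 0.15 (0.0277), the histidine-degrading Hal at -0.77 ± 0.15 (0.0324), the gluconeogenic Pck1 at -0.84 ± 0.18 (0.0466) and the cadherin gene Cdh1 at -0.94 ± 0.20 (0.0465), with a list median of -0.64. Limma called 0 genes of either list for NOB minus HFD, where Ang lay at 0.91 and Aldh1b1 at -0.76, and 0 for NOB minus RC. At an unadjusted p under 0.05 the pericentral list held 6 and 2 genes in these comparisons, and the periportal list 3 and 5. The largest differences on the high-fat diet that did not pass were Cyp27a1 at -0.67, which hydroxylates cholesterol side chains, and the urea cycle gene Ass1 at -0.64.

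These calls depended on single arrays and on the processing. With the authors' values Ang, Asl, Hal, Cdh1 and Pck1 no longer passed, at a limma adjusted p of 0.0670 to 0.0903, and without the filter on dim probes none of the 6 genes did, at 0.0663 to 0.135. Pck1 also missed the threshold without background correction and with the mean of probes. Without HFD at ZT2 or without HFD at ZT14 none of Ang, Cps1, Asl, Hal and Cdh1 passed, and Pck1 was lost with either of them left out as well. Ang and Asl were also lost without RC at ZT14, Hal without any 1 array, and Pck1 and Cdh1 also without RC at ZT2 and without either NOB array. Over the 6 fits with 1 array left out the highest limma adjusted p was 0.183 for Ang, 0.150 for Cps1, 0.227 for Asl, 0.241 for Hal, 0.311 for Pck1 and 0.296 for Cdh1.

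Few markers of other liver cells passed limma. Of 8 macrophage markers with probes 7 were measured, with Cd5l not detected. Gpnmb and Trem2, genes of lipid-laden macrophages, rose for HFD minus RC by limma, and Gpnmb alone fell for NOB minus HFD. Each was detected on only 4 arrays. In RC at ZT2 and ZT14 Gpnmb read 4.69 and 4.87 and Trem2 5.08 and 4.60. These readings lay near or below the dimmest detected probes, so the sizes of the HFD minus RC differences rest partly on background. The summed linear signal of the 7 was 2061 and 1466 in RC, 2886 and 2502 in HFD and 2569 and 3060 in NOB at ZT2 and ZT14. It was carried by bright genes such as Clec4f and Vsig4, which did not pass, and limma called 0 of the 7 for NOB minus RC, with 4 at an unadjusted p under 0.05. The 4 measured hepatocyte markers summed to 64698 and 59792 in RC, 57200 and 56454 in HFD and 61945 and 55300 in NOB. That sum rests on Ttr, Apoa1 and Serpina1c, which read near or at the top of the scale, so it cannot show a change in hepatocyte share. The part of these markers in the Cyp1a2 differences was not tested.

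The remaining marker lists gave fewer calls. None of 5 measured endothelial or 5 stellate markers passed limma for any pair of arms, with summed signals of 2979 to 3831 and of 972 to 1390 over the arrays. The pair of neutrophil genes S100a8 and S100a9, which did not pass, summed to 111 and 54.4 in RC, 317 and 158 in HFD and 71.0 and 129 in NOB at ZT2 and ZT14. Of 4 cholangiocyte markers with probes Krt19, Krt7 and Epcam were not detected, and Sox9, a factor of duct cells, fell for NOB minus RC (-1.46, limma adjusted p = 0.0407).

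Likeness of pattern was measured as Pearson's r over the 6 arrays among 837 genes detected on all of them with a log2 range of at least 1. For Cyp1a2 the 5 highest were the sulfotransferase gene Sult2a8 (r = 0.986), the cytochrome P450 genes Cyp2c37 (0.982), Cyp2c50 (0.977) and Cyp2c54 (0.940) and the non-coding Dleu2 (0.945), and 9 genes exceeded 0.9. Each of the 5 had its lowest levels on the HFD arrays: Sult2a8 stood at 10.69, 9.62 and 10.62 in RC, HFD and NOB at ZT2 and at 10.91, 9.36 and 10.66 at ZT14. The Cyp2c genes are close relatives whose probes may share transcripts. With 6 arrays and 837 genes compared, these values are given as a description.

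For Cyp2a5 the 5 highest were Tmcc1 (r = 0.969), the scaffold gene Homer2 (0.968) and the clock genes Cry2 (0.965), Cipc (0.964) and Per2 (0.950), and 14 genes exceeded 0.9. Cry2 and Per2 encode repressors of the circadian clock, and CIPC is a repressor that binds CLOCK. Per2 stood at 7.21, 7.55 and 7.82 in RC, HFD and NOB at ZT2 and at 9.79, 8.73 and 8.99 at ZT14, so it shared with Cyp2a5 the order RC, NOB, HFD at ZT14. None of the measured members was close to Cyp1a2 in this sense: Cyp2a5 reached r = 0.45, Arnt 0.04, Cyp2a12 -0.12 and Cyp2a4 -0.43.

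**Figure D4:**
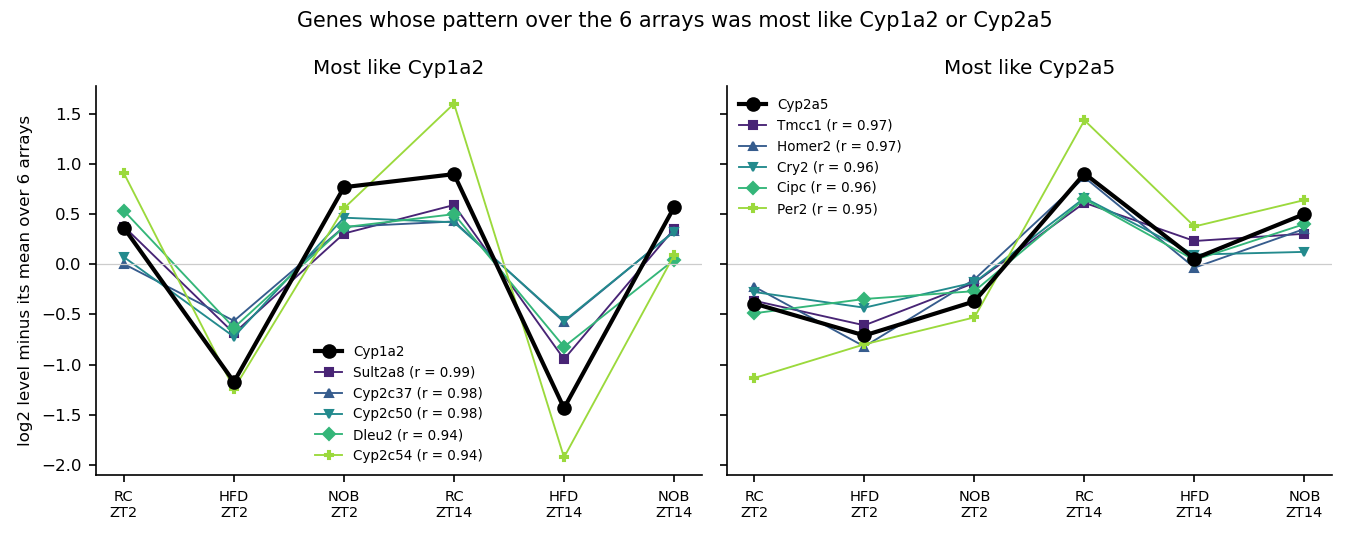
Log2 level minus the gene's mean over the 6 arrays for Cyp1a2 (left, black) and Cyp2a5 (right, black) and the 5 genes whose pattern correlated best with each, with Pearson's r over 6 arrays in the legend. On the left all lines dip on both HFD arrays; on the right all lie higher at ZT14 than at ZT2, with RC the highest at ZT14.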

How the data were processed

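Per the file headers, the authors deposited the average bead intensity of each probe on Illumina arrays and its detection p-value. The submitters' processing notes name GenomeStudio, with no options or version. By their values the deposited intensities were neither background-subtracted nor scaled. The authors' processed intensities, used as an alternative, were linear with a median of 3.5 in every column. Intensities were normalized with neqc of limma 3.58.1 in R 4.3.3 (offset 16, quantile, log2). A probe needed a detection p under 0.01 on 2 arrays, and the brightest probe stood for a gene, which left 8561 genes. Symbols came from the platform's probe table.

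Arms were compared over both times with limma, arm and time additive (2 residual degrees of freedom plus a prior of 4.82), and a Benjamini-Hochberg rate of 0.05 over all genes. P-values rest only on how far these 6 pools depart from the additive model. No group had a replicate, so an arm difference that changed with time counted as spread. The fit was tested on simulated data. Alternatives changed the normalization, offset, filter, probe rule, variance model and fold, used the authors' values and left out each array. The members and the gene lists were chosen with earlier results of these data known. From each list the text names members that passed for a pair of arms and the largest difference that did not, with Dbp, Tef, Nr1i3, Alas1, Nqo1, Ugt1a6a, Ugt1a6b, Glul and Cyp2e1 named after their values were seen. The 5 genes most like Cyp1a2 and Cyp2a5 were taken by correlation. The number of arrays limits the precision.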

Additional observations from a re-analysis of the deposited data

Results flagged for a closer look

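Cyp2a4 was flagged because its differences pointed in opposite directions in groups compared the same way, each past 1.5-fold; with 1 pool per group this was not tested. HFD minus RC was -1.50 at ZT2 and 2.32 at ZT14, a turn shared by 8 of 8561 genes, or 0.0934%. NOB minus RC was -2.48 at ZT2 and 1.80 at ZT14, a turn shared by 17 genes, or 0.199%. ZT14 minus ZT2 ranged from -2.19 in RC to 2.09 in NOB.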

How the results depend on the processing

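No paired analysis was possible because each group was 1 array and the labels give no replicate numbers. Between HFD and RC, 584 genes passed limma, against 172 with the authors' values, 91 without the filter on dim probes and 34 to 721 with 1 array left out. Between NOB and HFD, 14 passed, against 2, 1, 9 with detection on all 6 arrays, 30 with an intensity trend and 0 to 41 with 1 array left out. Between NOB and RC, 85 passed, against 3 with the authors' values, 1 without the filter, 152 with the trend and 14 to 165 with 1 array left out. Between the times, 2 passed, against 0 with the authors' values, 0 without the filter, 5 with an offset of 50, 9 with detection on all arrays, 1 with the mean of probes, 13 with the trend and 1 to 11 with 1 array left out. Without HFD at ZT2, RC at ZT14 or HFD at ZT14 the count between HFD and RC was 42, 166 or 34. Between NOB and HFD it was 0 without either HFD array, 2 without NOB at ZT2 and 41 without either RC array. The count between NOB and RC and that between the times moved by over 1.5 times with any 1 array left out.

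Genes past 1.5-fold are next given as HFD minus RC, NOB minus HFD and NOB minus RC, each at ZT2 then ZT14, and ZT14 minus ZT2 in RC, HFD and NOB. They numbered 1153, 1635, 570, 530, 643, 1297, 809, 466 and 612. At 2-fold they were 294, 550, 130, 139, 150, 378, 172, 101 and 105. Quantile normalization without background correction gave 606, 920, 272, 252, 296, 661, 347, 211 and 274, and an offset of 50 gave 647, 980, 291, 273, 318, 704, 379, 229 and 294. The authors' values gave 886 and 873 for NOB minus HFD, 995 for NOB minus RC at ZT2, 817 in HFD and 959 in NOB over the day.

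Of the members' values under these settings, 386 moved by less than the residual SD and 4 by more. Many of the 386 were fixed in advance. A changed filter left the brightest probe of each member as it was, and the mean of probes could not alter the single-probe genes Cyp2a4 and Cyp2a12. The residual SD of Cyp2a4 is wide, at 1.66, and hides moves: its HFD minus RC at ZT14 ran from 1.53 to 2.99, its NOB minus RC at ZT2 from -3.26 to -1.56 and its day to night difference in RC from -2.85 to -1.42, the larger sizes with the authors' values floored at 16. Among the listed genes 14 values gained a call under these settings and 15 lost it, and with 1 array left out 17 gained and 30 lost it. The gains other than Blvrb under these settings were Cyp27a1 and Ass1 for HFD minus RC and Cyp2f2 and Hal for NOB minus RC. With the mean of probes Cyp2a5 had -1.05 for HFD minus RC at ZT14, and Arnt 0.061 over the day, -0.083 in RC and 0.23 in HFD. With 1 array left out, the difference over both times for HFD minus RC ran from -2.32 to -1.55 for Cyp1a2, -1.62 to 2.43 for Cyp2a4, -0.82 to -0.34 for Cyp2a5 and -0.18 to 0.33 for Arnt. For NOB minus HFD it ran from -1.93 to 0.44 for Cyp2a4, -0.42 to 0.17 for Cyp2a12 and -0.10 to 0.41 for Arnt. Cyp2a4, at -0.75 there, turned to 0.44 without NOB at ZT2 and to 0.09 without HFD at ZT14. For NOB minus RC it ran from -0.35 to 0.42 for Cyp1a2, -2.36 to 1.69 for Cyp2a4, -0.43 to 0.049 for Cyp2a5 and -0.41 to 0.17 for Cyp2a12. These fits use fewer samples, and the other causes were not tested. Signal near background limits Cyp2a4 and leaves only a bound for Cyp1a1, Ahr and Tiparp.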
